A study of Mus musculus with 39 samples.

Results

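The epithelial keratins Krt7, Krt8, Krt18, Krt19, Krt20 and Krt23 were followed through 39 single intestinal crypt cells. The 6 genes were taken by symbol from the 25219 genes of the expression table, which holds 52 keratin genes in all, and all 6 had a row. The cells came from mice that carry Lgr5-EGFP-Ires-CreERT2 and a Rosa-lsl-tdTomato reporter, in which tamoxifen turns on a permanent red label in cells that express Lgr5, so that their progeny stay red. Cre in this line is driven from the Lgr5 locus, and tamoxifen was given 24 h before 10 Gy of total body irradiation. At 48 h after irradiation, tdTomato+ Sca1- crypt epithelial cells, called Sca1- Lgr5-derivatives, were sorted and captured one by one on a microfluidic chip. All 39 cells belong to this one group, so there is no unirradiated or Sca1+ group to compare with here. The labels do not tie a cell to a mouse. The number of mice is thus not known, and the 39 cells are treated as 1 biological sample. SDs give the spread from cell to cell, which may hold differences between mice, and p-values were not computed.

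Keratins are the intermediate filament proteins of epithelia. A filament is built from pairs of 1 type I (acidic) and 1 type II (basic to neutral) chain, so each cell needs both types. In simple epithelia such as the gut, Krt8 is the main type II chain and Krt18 its main type I partner, with Krt19 and Krt20 as further type I chains. Krt19 is known from the crypt and Krt20 from differentiated cells of the villus. Krt7 is a type II chain of ductal and other simple epithelia, and Krt23 a type I chain.

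Krt8 and Krt18 are neighbours on mouse chromosome 15 (GRCm38) and point away from each other. Krt8 lies at chr15:101996711-102004342 on the minus strand and Krt18 at chr15:102028216-102032026 on the plus strand, with 23874 bases between their start sites and no other gene of the table between them. Krt7 lies on the same chromosome at chr15:101412403-101427806 on the plus strand. The other type I genes are on chromosome 11, all on the minus strand, with Krt20 at chr11:99428403-99438153, Krt23 at chr11:99477973-99493110 and Krt19 at chr11:100140811-100145919. No other gene of the table overlaps any of the 6. The 250 bases upstream of the start sites of Krt8 and Krt18 are printed because the levels of these genes went together in the cells, as described later. They are RefSeq sequence of GRCm38.p6, at chr15:102004343-102004592 on the minus strand for Krt8 and at chr15:102027966-102028215 on the plus strand for Krt18, and the capitals mark the letters CACCTG, an E-box.
Krt8: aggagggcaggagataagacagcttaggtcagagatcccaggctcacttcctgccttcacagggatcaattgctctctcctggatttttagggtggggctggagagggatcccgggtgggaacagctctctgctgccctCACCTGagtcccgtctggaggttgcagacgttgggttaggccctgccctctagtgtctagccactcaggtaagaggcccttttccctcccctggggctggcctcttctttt
Krt18: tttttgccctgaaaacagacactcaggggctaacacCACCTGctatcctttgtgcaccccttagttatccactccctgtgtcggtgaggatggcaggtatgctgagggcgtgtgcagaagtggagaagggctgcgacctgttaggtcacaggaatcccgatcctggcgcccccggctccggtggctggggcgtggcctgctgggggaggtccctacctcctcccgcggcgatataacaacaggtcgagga
The E-box was chosen after these sequences had been read. Searched on both strands, CACCTG was in 17.2% of the 32851 upstream windows of this length in the promoter table. It began 111 bases before the start site in Krt8 and 214 bases before it in Krt18. TATAAA (in 12.4% of windows), GGGCGG (32.7%) and TGANTCA (6.75%) were not in either window.

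Depth was between 398418 and 3903971 estimated counts per cell (median 3089188), and between 2287 and 5779 genes per cell were at 1 FPKM or more (median 4609). FPKM counts the fragments of a gene relative to its transcript length and to the cell's total. Cell 9 had the fewest counts and, with cell 79 close to it at 2335, the fewest genes. The epithelial adhesion gene Epcam reached 1 FPKM in all 39 cells. The sum of the 7 immune markers reached 2.75 FPKM at most, that of the 5 enteroendocrine markers 1.38 FPKM, and all 7 stromal and endothelial markers were at 0 in every cell. Ly6a, which encodes Sca1, was at 1 FPKM or more in 4 cells.

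The type II chain Krt8 and the type I chain Krt18 were found in every cell, at 100 FPKM or more in 39 cells for Krt8 and in 37 for Krt18. Krt8 ranged from 160.0 FPKM in cell 56 through a median of 572 to 4209 in cell 79 (mean 880 ± 866, SD over 39 cells). Krt18 ranged from 55.6 FPKM in cell 56 through a median of 926 to 15406 in cell 79 (mean 1374 ± 2481, SD over 39 cells). Both genes were at 1 FPKM or more in 39 of 39 cells (100%, exact 95% interval 91.0% to 100%). By FPKM, Krt18 was the highest of the 6 keratins in 29 cells, Krt8 in 7 and Krt19 in 3, while by estimated counts, which are not per length, it was so in 18, Krt8 in 20 and Krt19 in 1. Within a cell, Krt18 had a median rank of 80 among all genes and Krt8 one of 170, and in cell 79 Krt18 was the gene with the second highest FPKM (rank 2).

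Krt19, a type I chain, reached 1 FPKM in 37 cells (94.9%, 82.7% to 99.4%). Its values ran from 0 in cell 79 and 0.429 FPKM in cell 96, through a median of 284, to 1364 FPKM in cell 5. Without cells 79 and 96 the lowest value was 26.5 FPKM, in cell 4. No count of Krt19 was thus seen in 1 cell and only 2 counts in 1 further cell, while 34 cells were at 100 FPKM or more.

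On the log2(FPKM + 1) scale Krt23 and Krt7 had the widest spread over cells, with SDs of 3.06 and 2.71, followed by Krt19 with 2.09 (1.13 without cells 79 and 96). Krt7, a type II chain, was at 1 FPKM or more in 33 cells (84.6%, 69.5% to 94.1%), with a median of 67.6 FPKM and a highest value of 368 in cell 4. It was below 1 FPKM in 6 cells. Krt23, a type I chain, was at 1 FPKM or more in 17 cells (43.6%, 27.8% to 60.4%), with a median of 0.835 FPKM and a highest value of 465 in cell 79. Of the 17 cells with Krt23, 7 reached 100 FPKM. Krt7 and Krt23 were found together in 15 cells, Krt7 without Krt23 in 18, Krt23 without Krt7 in 2 and neither in 4.

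Krt20 was nearly absent. It reached 1 FPKM in 1 of 39 cells (2.56%, 0.0649% to 13.5%), cell 16, where it was at 9.24 FPKM from 66 counts. The only other cell above 0 was cell 2, at 0.163 FPKM. Among the enterocyte markers, the brush border gene Vil1 was at 1 FPKM or more in 31 cells, the fatty acid binding gene Fabp2 in 35, and the disaccharidase gene Sis in 1. These intervals cover only the number of cells counted, not differences between mice or RNA lost before amplification.

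**Figure D1:**
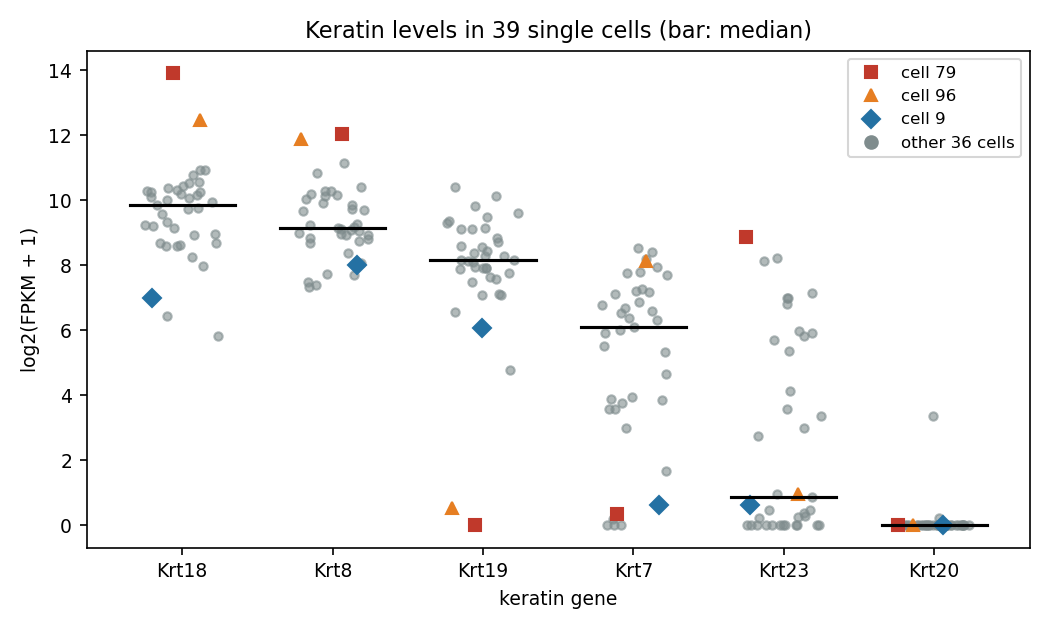
Level of each keratin in each of 39 cells as log2(FPKM + 1), with the black bar at the median. Krt18 and Krt8 are above 1 FPKM in all cells, cells 79 and 96 lie at the top for both and at the bottom for Krt19, Krt7 and Krt23 spread from 0 upwards, and Krt20 is above 1 FPKM in 1 cell.

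By median the order of the levels per length was Krt18, Krt8, Krt19, Krt7, Krt23 and Krt20. Krt18 was above Krt8 in 29 of 39 cells, with a mean difference of Krt8 minus Krt18 of -0.30 ± 1.05 on the log2(FPKM + 1) scale (SD over 39 cells). Krt8 was above Krt19 in 33 cells (mean difference 1.49 ± 2.60), and Krt7 above Krt23 in 29 cells (2.49 ± 4.02). Krt19 was above Krt7 in 36 cells, the exceptions being cells 4, 79 and 96. For each of these neighbouring pairs, and for Krt23 against Krt20 (mean difference of Krt20 minus Krt23 -2.58 ± 3.18), the mean difference was smaller than its spread over cells.

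The balance of the chains differed between cells. The log2 ratio of Krt8 to Krt18 FPKM had a mean of -0.30 ± 1.05 (SD, 39 cells) and ran from -2.82 in cell 72, where Krt18 was 7.05 times Krt8, to 2.54 in cell 52, where it was 0.172 times Krt8. On estimated counts, which are not per length, the mean was 0.07, and Krt8 was above Krt18 in 21 of 39 cells, so the direction depends on the length correction. The log2 ratio of type II (Krt7 and Krt8) to type I (Krt18, Krt19, Krt20 and Krt23) had a mean of -0.77 ± 0.78 and ran from -3.24 in cell 72 to 0.997 in cell 52. By FPKM, type I RNA was therefore in excess on average, by about the spread over cells. This ratio was not computed on estimated counts. Krt18 made up 42.9% of the FPKM of the 6 keratins in the median cell, with a low of 8.95% in cell 52 and a high of 76.7% in cell 79. Krt19 made up 16.8% in the median cell and 42.7% at most, in cell 92. Krt8 made up between 9.57% and 56.8%. The share of Krt7 reached 20.8% in cell 4, the cell outside 79 and 96 with the lowest Krt19, and that of Krt23 reached 13.5% in cell 93.

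**Figure D2:**
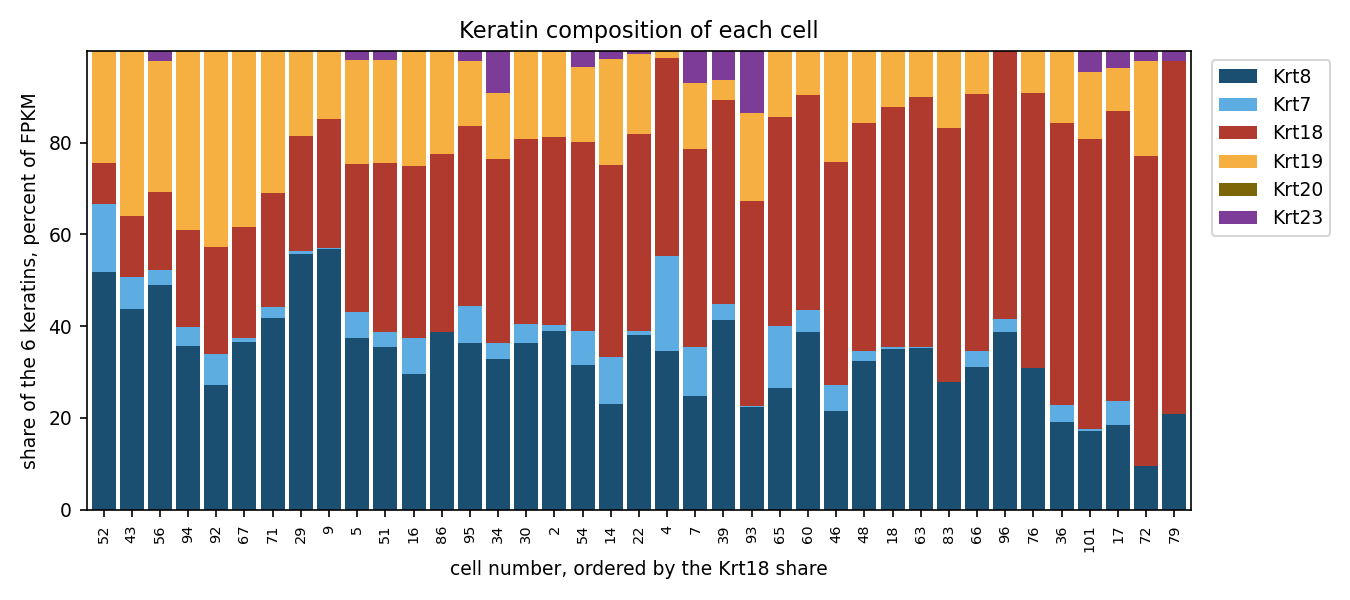
Share of each keratin in the summed FPKM of the 6 genes, in percent, 1 bar per cell, ordered by the Krt18 share. Blue parts are type II chains and the other colours type I chains. Krt18 rises from 8.95% in cell 52 to 76.7% in cell 79, and cells 79 and 96 show no visible Krt19.

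Krt8 and Krt18 levels went together over the cells. Pearson's r of log2(FPKM + 1) was 0.69 over 39 cells, and Spearman's rho was 0.61. Among the 3368 other genes that averaged at least 10 FPKM and were at 1 FPKM or more in at least 20 cells, Krt18 was the gene with the highest r with Krt8, and Krt8 the gene with the highest r with Krt18. The share of genes with an r at least as high was therefore 0.0297% in both directions. The 2 cells with the highest Krt8 and Krt18, cells 79 and 96, carry part of this. Without them r was 0.55 (37 cells), and Krt18 then held rank 3 for Krt8 (0.0891% of genes at least as high) and Krt8 rank 19 for Krt18 (0.564%). The points share their library and its depth. Krt18 had an r of 0.24 with the estimated counts of the cell over 39 cells and of 0.50 without cells 79 and 96, while Krt8 had -0.05 and 0.09. The share of a cell's FPKM total that fell on genes, between 33.4% and 95.2%, had an r of 0.21 with Krt8 and 0.25 with Krt18 over 39 cells, and of 0.40 and 0.51 without cells 79 and 96. With each cell rescaled to the same sum over genes, the r between Krt8 and Krt18 was 0.67 over 39 cells, and the part of depth in the pairing was not tested.

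Cells 43, 52, 56 and 72 lay apart from most others in the plot of Krt18 against Krt8. Cell 52 had Krt8 at 503 FPKM and Krt18 at 86.7, cell 43 had 1362 and 412, and cell 72 had 178 and 1255. Cell 56 had the lowest value of both, 160.0 and 55.6 FPKM, and the 6 keratins made up 0.0709% of the FPKM of its genes, the smallest share of any cell. This cell also had the highest sum of the 6 Paneth cell markers, 12674 FPKM against a median of 360.0, with 6 of 6 at 1 FPKM or more. Defensin genes, which make up most of the Paneth sum in cell 56, are near-identical copies whose counts can be divided uncertainly. The part of these markers or of depth in its low keratins was not tested.

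**Figure D3:**
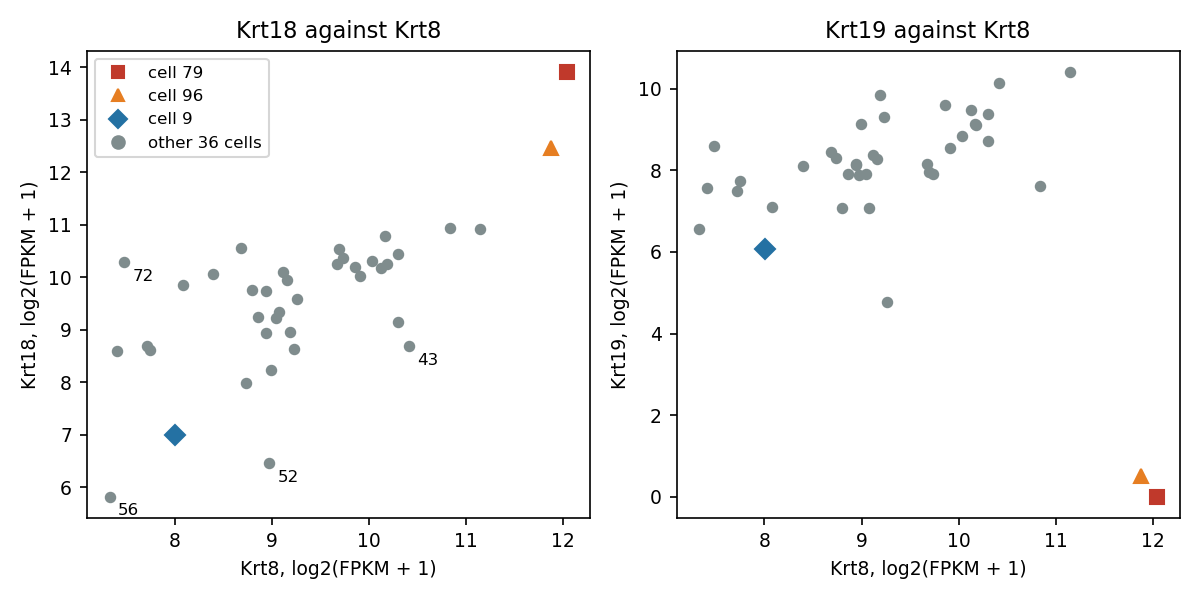
Krt18 (left) and Krt19 (right) against Krt8, all as log2(FPKM + 1), 1 point per cell, with cells 9, 79 and 96 marked and cells 43, 52, 56 and 72 numbered. Krt18 rises with Krt8 (r 0.69 over 39 cells, 0.55 without cells 79 and 96). Krt19 rises with Krt8 in the other 37 cells (r 0.54) while cells 79 and 96 lie far below.

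Krt19 showed both patterns. Over 39 cells, r was -0.23 between Krt8 and Krt19 and -0.36 between Krt18 and Krt19, but without cells 79 and 96 the values were 0.54 and 0.34, so the negative sign rests on these 2 cells. By rank, rho was 0.37 and 0.14 over all 39 cells. Without cells 79 and 96, rho was 0.60 between Krt8 and Krt19 and 0.33 between Krt18 and Krt19, against 0.54 between Krt8 and Krt18. Krt19 then held rank 5 for Krt8 and Krt8 rank 10 for Krt19, so Krt19 followed Krt8 about as closely as Krt18 did in these 37 cells. Krt7 had an r of 0.30 with Krt8, 0.06 with Krt18 and 0.20 with Krt19, and without cell 79 alone these were 0.48, 0.24 and 0.03. Without cells 79 and 96 they were 0.45, 0.19 and 0.25. Krt23 had an r of 0.35 with Krt18, 0.11 with Krt8 and -0.13 with Krt19, and without cell 79 these were 0.22, -0.02 and 0.10. Without cells 79 and 96 they were 0.28, 0.02 and 0.05. Krt19 and Krt20 had an r of 0.15, which describes little, since Krt20 was above 1 FPKM in 1 cell.

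Cells 79 and 96 held the most keratin RNA of all. In cell 79, Krt8 was at 4209 FPKM (17536 counts), Krt18 at 15406 (49788 counts) and Krt23 at 465 (1653 counts), while Krt7 was at 0.273 FPKM (1 count) and Krt19 and Krt20 at 0. In cell 96, Krt8 was at 3767 FPKM (23053 counts), Krt18 at 5666 and Krt7 at 281, while Krt19 was at 0.429, Krt23 at 0.958 and Krt20 at 0. Krt8 and Krt18 were thus 7.36 and 16.6 times their medians over the 39 cells in cell 79, and 6.59 and 6.12 times in cell 96. The third highest cell was at 2258 FPKM for Krt8 (cell 5) and 1965 for Krt18 (cell 39). The cells differed from each other in Krt7, which was high in cell 96, and in Krt23, which was high in cell 79.

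Few genes had their 2 highest values in cells 79 and 96. This held for 0.826% of the 9804 genes that averaged 1 FPKM or more, Krt8 and Krt18 among them. Cell 79 alone held the highest value of 3.8% of these genes, and Krt8, Krt18 and Krt23 were 3 of them. The 2 lowest values fell in these cells for 8.51% of the 740 genes at 1 FPKM or more in at least 37 cells, and Krt19 was one of them. The cells were singled out for their keratin values, so these shares describe them and test nothing. The 6 keratins made up 4.71% of the FPKM of all genes in cell 79 and 2.19% in cell 96, against at most 0.999% in the other cells and a median of 0.407%.

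Markers of tuft cells, the chemosensory cells of the gut epithelium, were almost only in the same 2 cells. The double cortin-like kinase Dclk1 was at 105 FPKM in cell 79 and 222 in cell 96, and at 0.0289 at most elsewhere. The actin-binding gene Avil was at 386 and 1162 FPKM, and at 0.830 at most elsewhere. Rgs13, a regulator of G protein signalling, was at 1368 and 3217 FPKM (12.6 at most elsewhere), and Alox5ap, which serves leukotriene synthesis, at 3311 and 5443 (17.1 at most elsewhere). The cation channel gene Trpm5 was at 181 and 10.0 FPKM, with 11.04 in cell 7. The transcription factor gene Pou2f3 was at 0 in cell 79 and 162 FPKM in cell 96, with 19.5 in cell 67. The 6 markers summed to 5352 FPKM in cell 79, where 5 of 6 were at 1 FPKM or more, and to 10216 in cell 96, where 6 of 6 were. In the other 37 cells the sum was between 0 and 29.9 FPKM, with at most 2 of 6.

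**Figure D4:**
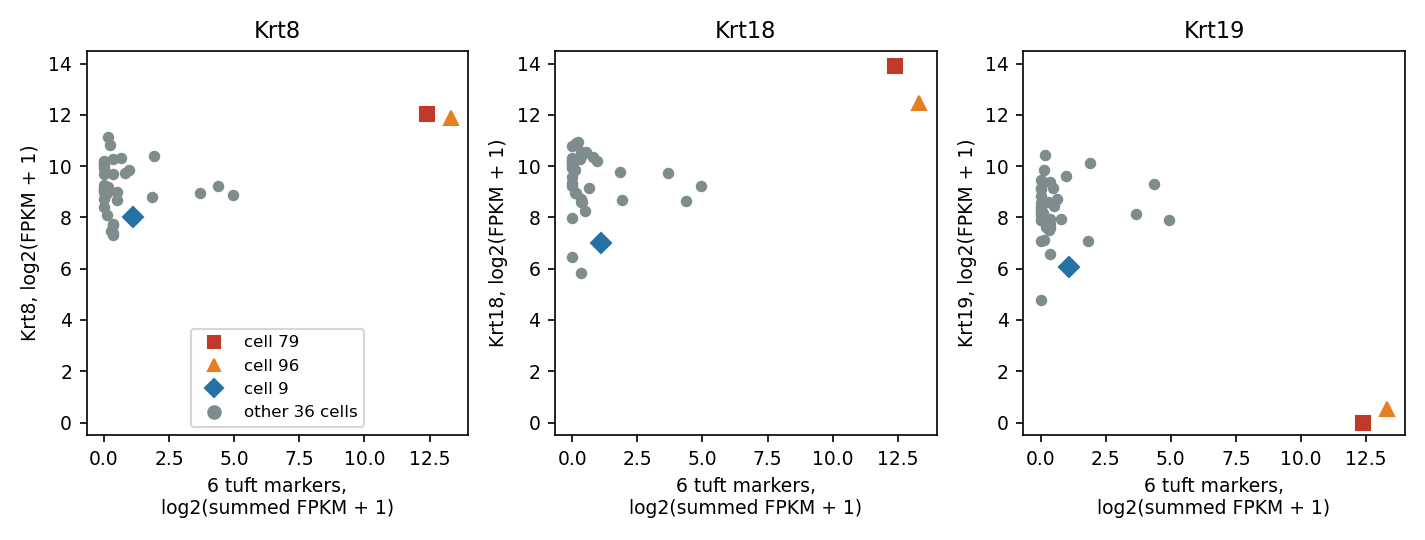
Krt8, Krt18 and Krt19 (left to right), as log2(FPKM + 1), against the summed FPKM of 6 tuft cell markers, as log2(sum + 1), 1 point per cell. Cells 79 and 96 stand alone at the right, above all others for Krt8 and Krt18 and below all others for Krt19.

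Other genes are given for these 2 cells as well. The genes at 100 FPKM or more in cell 79 that lay farthest above the median of the other cells included Fabp1 (40997 FPKM, with 1095 at most elsewhere), Spink3 (7113), Tm4sf4 (5306) and Alox5ap, which was higher still in cell 96. Fabp1, a fatty acid binding protein of enterocytes, was at 0.599 FPKM in cell 96. Cell 79 had 4 of the 10 enterocyte markers at 1 FPKM or more, which is also the median over the 39 cells. The 10 markers summed to 41315 FPKM in cell 79 and 297 in cell 96, and to 1819 at most elsewhere. The cyclin gene Ccnd2, at a median of 343 FPKM over the 39 cells, was at 0.751 in cell 79 and 0.307 in cell 96. Of the 6 proliferation genes, 1 was at 1 FPKM or more in each of these cells, against a median of 5 over all cells, and this gene, Pcna, was at 308 FPKM in cell 79 and 6.79 in cell 96 (median 212). The stem cell gene Olfm4 was at 0.792 FPKM in cell 79 and 2353 in cell 96. Cell 79 had 1466913 estimated counts and 2335 genes at 1 FPKM or more, and cell 96 had 3064032 counts and 2988 genes, each below its median. What part the tuft markers or the smaller number of genes have in the keratin values was not tested.

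Beside each keratin, the 5 genes with the most similar pattern were named by Pearson's r of log2(FPKM + 1) over the 39 cells. For Krt8 they were Krt18, the lectin gene Lgals4 (0.60), Eps8l3 (0.53), Cyb5a (0.51) and the Wnt effector gene Tcf7l2 (0.49). Without cells 79 and 96, Lgals4 was at 0.71, Eps8l3 and Cyb5a at 0.43 and Tcf7l2 at 0.36. For Krt18 they were Krt8, Ndufb4 (0.60), the tubulin gene Tuba1a (0.59), Gabarapl2 (0.57) and Grcc10 (0.56). Without cells 79 and 96, r was 0.55, 0.55, 0.42, 0.42 and 0.54 for these, and 0 of the 5 remained among the 5 most similar genes. For Krt19 they were Ccnd2 (0.83), the glutathione peroxidase gene Gpx2 (0.82), Rps18 (0.78), Eif3i (0.78) and Nhp2 (0.77). Those of Krt19 rest largely on cells 79 and 96, since r was 0.40, 0.26, 0.45, 0.39 and 0.29 without them. For Krt7 they were Lin7c (0.73), Dazap2 (0.64), Trp53 (0.57), Dctn4 (0.55) and Gfm1 (0.54), all between 0.48 and 0.70 without the 2 cells. For Krt23 they included 9530068E07Rik (0.46), Tgs1 (0.44), Ccdc12 (0.43) and Suv39h1 (0.43). Krt20 was in too few cells for this.

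Genes that anchor or accompany keratin filaments did not go together with Krt8 and Krt18 to a like degree. Of the 11 linker, desmosome and epithelial adhesion genes, 9 averaged 1 FPKM or more. The desmosomal linker Dsp, to which keratins attach, had a median of 9.46 FPKM, with 41.1 in cell 79 and 0.0615 in cell 96. The desmosomal cadherin Dsg2 had a median of 24.6 FPKM, with 10.7 and 33.8. The cross-linker Plec was at 0 in cell 79 and 23.7 in cell 96, and Cdh1, encoding E-cadherin, at 0 and 68.0. Dsp, Dsg2, Plec and Cdh1 had an r with Krt18 of 0.05, 0.08, 0.17 and -0.38, that of Cdh1 being -0.07 without cells 79 and 96. With Krt8 their r was -0.02, 0.27, 0.21 and -0.36. Without cells 79 and 96, the highest r of the 11 genes was 0.32 with Krt8 (Dsg2) and 0.36 with Krt18 (Jup). The r between Krt8 and Krt18 was then 0.55. Of the 5 keratin-binding and chaperone genes, 4 averaged 1 FPKM or more. Hspa8 (median 4045 FPKM), Ywhaz (631) and Ywhae (427) were in all 39 cells, and their r with Krt8 was -0.08, 0.10 and 0.07. Without cells 79 and 96 it was 0.06, 0.21 and 0.26, and their r with Krt18 was 0.29, 0.27 and 0.27. Sfn then had an r of 0.30 with Krt8 and 0.18 with Krt18. Of the 7 other intermediate filament genes, 4 reached 1 FPKM in some cell, the 3 nuclear lamin genes and Vim. Vim was above 1 FPKM in 1 cell, at 3.29 FPKM, and Lmna, encoding lamin A and C, was in 34 cells (median 39.6 FPKM). Lmna had an r of 0.69 with Krt19 over 39 cells and of 0.69 without cells 79 and 96. Its r with Krt8 and Krt18 was 0.09 and 0.06 over 39 cells, and 0.43 and 0.41 without these 2 cells.

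Among the other 46 keratin genes, 30 were at 0 in every cell, and 4 averaged 1 FPKM or more. Krt15, a type I chain of basal cells, was at 1026 FPKM in cell 16 (6533 counts) and at 1 FPKM or more in 10 cells, with 132 in the next highest. Krt33a, a hair keratin, was at 51.5 FPKM in cell 16 and at 0.516 at most elsewhere. Cell 16, the cell with Krt20, was therefore also the highest for both of these type I genes. The estimated count of Krt33a in cell 16 was not whole (320.1), and Krt34 was highest there too (1.12 FPKM), so their reads may be shared. Krt10 was in 6 cells, with 10.9 FPKM at most, and Krt85 in 2, with 40.5 at most. Reads of Krt85 may be shared with the similar Krt83, which was at 24.1 FPKM in the same cell 76, so both are uncertain.

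The study grouped its cells by an intestinal stem cell (ISC) signature, and cells were grouped here by complete-linkage clustering on the 98 signature genes, none of which is a keratin of the 6. The study's own cluster of each cell was not used here, so how far these groups match it was not checked. It gave 22 cells with a higher and 17 with a lower signature, cells 9, 79 and 96 being in the latter. These groups were defined from the data and are no separate samples, so the values describe them. Krt8 ranged from 169 through a median of 491 to 1826 FPKM in the cells with the higher signature, and from 160.0 through 1045 to 4209 FPKM in those with the lower. The difference of the mean log2 values, higher minus lower, was -0.99 with a pooled cell-to-cell SD of 1.03, and -0.71 without cells 79 and 96. The ranges of the groups overlapped, and the difference was within the spread over cells.

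The other keratins differed less in proportion to their spread. The difference was -0.20 for Krt18, 0.37 for Krt19, -0.69 for Krt7, -0.21 for Krt20 and 0.70 for Krt23, with pooled SDs of 1.46, 2.11, 2.72, 0.53 and 3.08. Without cells 79 and 96, Krt18 turned to 0.26 and Krt19 to -0.61. The median Krt19 level was 261 FPKM in the group with the higher signature and 553 in the other, and the values were tight in the former (134 to 664 FPKM) and broad in the latter (0 to 1364, or 26.5 to 1364 without cells 79 and 96). Krt23 was at 1 FPKM or more in 11 of 22 and 6 of 17 cells. By this measure none of the 6 keratins reached a difference of 1 on the log2 scale, though Krt8 came close to it and Krt7, Krt8, Krt18 and Krt23 passed it under some alternatives (Krt8 at -1.06 in rescaled cells). A difference of 1 was reached by 19.2% of the 9804 genes as higher in the group with the higher signature and by 3.35% as higher in the other. The median over all these genes was 0.28. The groups also differed in genes at 1 FPKM or more, with medians of 4664 and 4073, and in marker sums. The 7 YAP target genes summed to a median of 7.44 FPKM in the cells with the higher signature and 320 in the other, the 6 Paneth markers to 262 and 616, and the 7 goblet markers to 173 and 178, with highest sums of 4817 and 41329 for the latter. In the same order, the proliferation genes summed to medians of 787 and 316, and the keratin-binding and chaperone genes to 5650 and 3684. The part of these in the keratin differences was not tested.

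**Figure D5:**
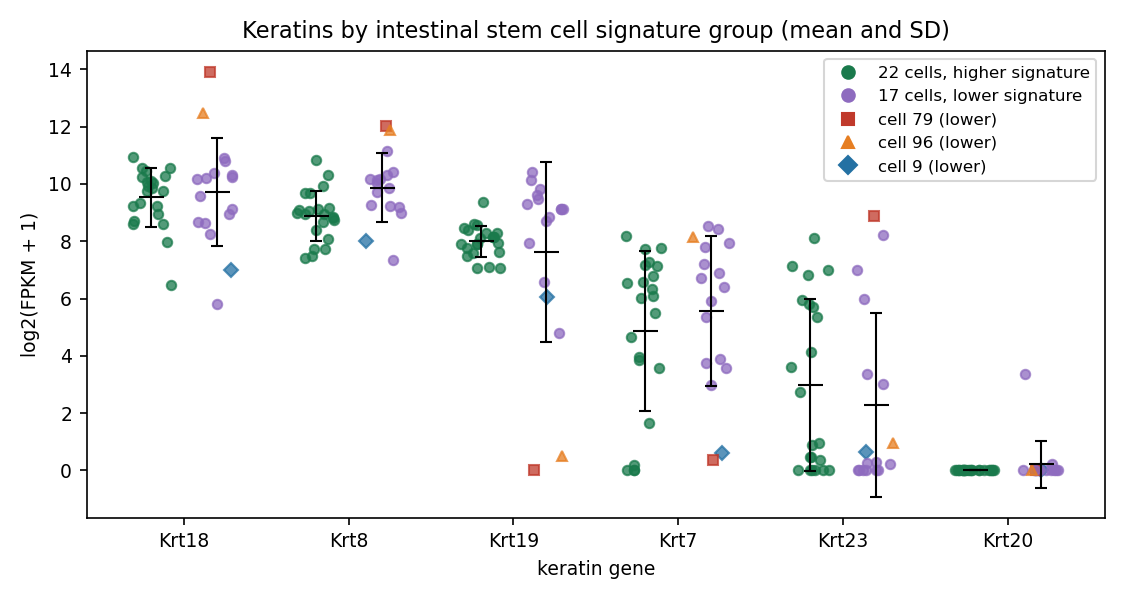
Keratin levels as log2(FPKM + 1) in the 22 cells with the higher (green) and the 17 with the lower (violet) ISC signature, with the mean and SD over cells in black. All 6 keratins overlap between the groups, and cells 79 and 96 set the ends of the lower group for Krt8, Krt18 and Krt19.

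The keratins of the cells that led the goblet, YAP target, stem and proliferation lists are given for comparison. Cell 63 had the highest sum of the 7 goblet markers (41329 FPKM, with Agr2 at 23329), and its Krt8, Krt18 and Krt19 were at 852, 1321 and 242 FPKM, all in the range of the other cells. Cell 5 had the highest sum of the 7 YAP target genes (3016 FPKM, mostly S100a6), the highest Krt19 (1364 FPKM), the highest Krt8 outside cells 79 and 96 (2258), and Krt18 at 1938 FPKM, below cell 39 alone among those cells. The 7 goblet markers also summed to 26749 FPKM in cell 5, below cell 63 alone, with its Tff3 (11289 FPKM) the highest of any cell. The highest sum of the 6 stem cell markers was in cell 36 (3886 FPKM), with Krt8 at 335, Krt18 at 1071 and Krt19 at 275 FPKM. Cell 60 had the highest sum of the 6 proliferation genes (1279 FPKM), and its Krt8, Krt18 and Krt19 were at 538, 650 and 134 FPKM. Cell 9, the shallowest, had Krt8 at 255, Krt18 at 127 and Krt19 at 65.9 FPKM, each below the median.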

How the data were processed

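Single-cell RNA-seq of 39 sorted cells was used, made per the labels with SMARTer and Nextera XT kits on a C1 chip whose capture sites had been inspected for single cells, so doublets were not called. Each library is 1 cell, and no barcodes are shared. The authors deposited FPKM, scaled per kilobase of transcript and to a total per cell, and an estimated count per gene, not normalized. The submitters' processing notes name bcl2fastq 1.8.4, TopHat2 2.0.14 and the builds mm10 and GRCm38. The counting tool is not given in the sources used here.

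Levels were taken as log2(FPKM + 1). Genes averaging 1 FPKM or more (9804) gave the backgrounds, and those averaging at least 10 FPKM with 1 FPKM or more in at least 20 cells (3369) the similar patterns. Shares have exact 95% intervals. Deposited estimated counts were rounded for thinning to 300000 per cell. Named genes were the members, the genes of the lists, the 5 most similar genes per member, other keratins with a mean of at least 1 FPKM and the 5 leading genes of cell 79. Some genes that this rule names are not reported here. The members and lists were chosen with earlier results of these data known. Lists covered linkers and desmosomes, other filaments, keratin-binding proteins, lineage, stem, proliferation, YAP target, immune, and stromal and endothelial genes. FPKM values summed over genes to between 180244 and 617797 per cell. The total behind the deposited FPKM was derived in each cell from count, FPKM and transcript length. Without molecular identifiers, a count is not a molecule. The scripts, in Python 3.11.15 with pandas 2.3.3 and scipy 1.17.1, were tested on simulated data.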

Additional observations from a re-analysis of the deposited data

How the results depend on the processing

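Of 89 alternatives, 79 kept their value within the spread over cells, within 0.1 for a correlation or within 1.5 times for a count. Leaving out cells 79 and 96, which are also the 2 cells farthest from the Krt8 median, moved the Krt8-Krt18 correlation from 0.69 to 0.55, and turned Krt8-Krt19 from -0.23 to 0.54 and Krt18-Krt19 from -0.36 to 0.34. Leaving out these 2 cells by name was chosen after seeing the data for every result it is given for. The Krt19-Krt20 correlation was 0.27 by rank. Rescaling the FPKM of each cell to a sum of 1000000 over genes, above the deposited sum of every cell, raised every median above 0, to 134 for Krt7, 1133 for Krt8, 1927 for Krt18, 584 for Krt19 and 2.16 for Krt23. The mean log2 ratio of Krt8 to Krt18 turned from -0.30 to 0.07 on estimated counts, within the spread over cells. Counting any value above 0 gave 2 cells with Krt20 and 27 with Krt23. Of 25 similar-pattern pairs, 14 remained with genes averaging 1 FPKM or more, and 7 without cells 79 and 96. Of 35 alternatives for the group differences, 5 changed sign, for Krt18, Krt19 and Krt23. All of these stayed within the spread over cells and so count among the 79. Ward linkage put all 39 cells in the same groups, so its alternatives could not differ from the main values. A difference of 1 was passed by Krt8 when rescaled (-1.06) and as a ratio of means (-1.18), by Krt18 as a ratio of means (-1.17), by Krt7 with a pseudocount of 0.1 (-1.08) and without cells 9 and 79 (-1.37), and by Krt23 with that pseudocount (1.14), without cells 9 and 79 (1.02) and without cells 79 and 96 (1.05). The log2 ratio of mean FPKM could not be had for Krt20, which was at 0 in 1 group. Thinned to 300000 counts, at least 1 count of Krt7 was seen in 33 cells, of Krt19 in 37, of Krt20 in 1 and of Krt23 in 18. Before thinning, these genes were above 0 in 36, 38, 2 and 27 cells. The thinned numbers were scored against cells at 1 FPKM or more, which is an unlike limit. No paired analysis was possible because the labels give 1 group.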
